A study of Mus musculus with 34 samples.

Results

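Enzymatic digestion of ribosomal RNA (rRNA) was compared with its removal by pull-down in RNA sequencing libraries made from mouse liver. The 9 digestion and 9 pull-down libraries were taken by their labels, and together they made up 18 of the 34 libraries of the series. All 18 came from the liver RNA of 1 wild-type, 12-week-old C57BL/6J mouse that had received no treatment named in the labels, so the replicates are library preparations and the p-values measure only the spread between preparations. Within each method every combination of 3 PCR ramp rates (slow, medium, fast) and 3 fragment lengths (short, medium, long) was prepared once, from 200 ng of RNA with 13 PCR cycles, in the batch that the titles number 2. Pull-down used a TruSeq Stranded Total RNA kit, in the version for human, mouse and rat. Digestion used Ribo-Zero Plus with the ligation-based Stranded Total RNA kit from the same maker, with its adapters and amplification primers exchanged so that both methods carried the same adapters with molecular identifiers. Method and kit therefore cannot be told apart.

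Most RNA in a cell is rRNA, and a library of total RNA is largely rRNA unless it is removed. In a pull-down, biotinylated probes bind rRNA and are drawn out with magnetic beads. In a digestion, DNA probes bind the rRNA, RNase H cuts the RNA strand of each hybrid, and DNase removes the probes. As background on the commercial reagents, the Ribo-Zero Plus probe pool is designed against cytoplasmic and mitochondrial rRNA and against globin mRNAs, whereas the pull-down version for human, mouse and rat has no probes meant for mitochondrial rRNA.

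Total counts lay between 19984238 and 30169379 in the digestion libraries and between 23376037 and 39186257 in 8 of the pull-down libraries. The pull-down library of slow ramp and long fragments held only 1126383 counts, and 12.7% of them came from CT010467.1, a gene annotated as rRNA, against at most 0.0216% in the other 8 pull-down libraries. It is called the low-depth library here. The shares of RNA classes, the counts of genes and the main genes in which it stood apart are given with and without its matched pair. The median gene had a standard deviation of 0.09 log2 units over the 9 digestion libraries and 0.25 over the 9 pull-down libraries, or 0.16 over the 8 without the low-depth library. The sex of the animal was female in one label and male in another. The Y-linked gene Ddx3y was read at 62.8 to 75.2 CPM (counts scaled to the normalised depth of the library) after digestion and at 54.2 to 95.2 after pull-down, and Xist, which is transcribed from an inactive X chromosome, never exceeded 10 counts. The markers of hepatocytes were present in every library, with summed levels of 59320 to 63350 normalised CPM after digestion and 67120 to 90290 after pull-down.

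Several groups of RNA took up quite different shares of the reads under the 2 methods. Nuclear protein-coding genes received 89.9% ± 0.521 (SD, n = 9) of the counts after digestion and 69.0% ± 4.86 (n = 9) after pull-down. Mitochondrial rRNA made up most of that gap, at 0.185% ± 0.0411 after digestion and 17.4% ± 4.33 after pull-down. Mitochondrial mRNA held 3.68% ± 0.205 after digestion and 2.05% ± 0.463 after pull-down, and long noncoding genes held 1.18% ± 0.0336 and 0.576% ± 0.0367. The small structured RNAs of RNA polymerase III and telomerase stood the other way, at 3.80% ± 0.281 after digestion and 8.32% ± 1.33 after pull-down. Each of these classes, and each of the C/D snoRNA, H/ACA snoRNA and U RNA classes, differed in the same direction in all 9 pairs matched on ramp rate and fragment length. The two-sided exact sign-flip test gave them the smallest p that 9 pairs allow, 0.00391, and an adjusted p of 0.00488 over the 10 classes. Without the low-depth pair the same classes differed in the same direction in all 8 pairs (exact p = 0.00781, adjusted p = 0.00868). Nuclear coding genes then held 90.0% after digestion and 70.0% after pull-down, mitochondrial rRNA 0.181% and 18.4%, and mitochondrial mRNA 3.65% and 2.12%. Long noncoding genes held 1.17% and 0.579%, and the polymerase III class 3.72% and 7.92%.

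The class called nuclear rRNA locus transcripts and the pseudogenes had adjusted p of 1.0 and 0.538 in the same exact test with all 9 pairs. That class held 2 genes, CT010467.1 on chromosome 17 and Lars2, which is a protein-coding gene on chromosome 9. Its share was higher after digestion in 8 of 9 pairs, at 0.179 to 0.887% against 0.00976 to 14.8% after pull-down, and the exception was the pair of the low-depth library. Without that pair it averaged 0.382% after digestion and 0.0169% after pull-down, higher in 8 of 8 pairs with an adjusted exact p of 0.00868. In 3 unselected libraries from that batch, made without rRNA removal from 20 ng of RNA, the class held 78.8 to 80.0% of counts, of which CT010467.1 alone held 70.0 to 71.2% and Lars2 8.52 to 8.78%. With rRNA genes left out of the totals, pseudogenes took a smaller share after digestion than after pull-down, by 0.135 percentage points (adjusted exact p = 0.0195).

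**Figure D1:**
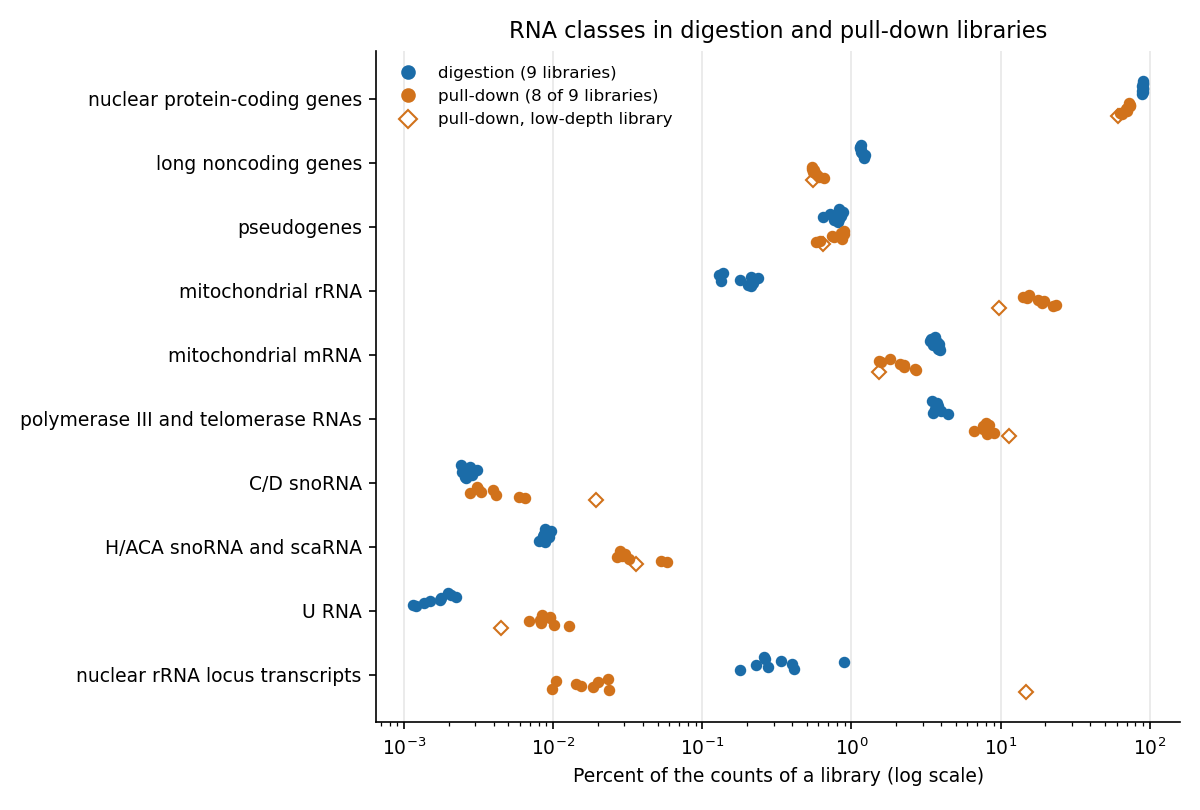
Percent of a library's counts (x axis, log scale) in 10 RNA classes (y axis), with 1 point per library, digestion in blue, pull-down in orange and the low-depth pull-down library as an open diamond. Mitochondrial rRNA spans 0.130 to 0.237% after digestion and 9.76 to 23.5% after pull-down, and the low-depth library alone lies near 14.8% for the nuclear rRNA locus.

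Across all genes the methods differed widely but mostly by small amounts. By edgeR's quasi-likelihood test 10437 of 14140 genes (73.8%) had an adjusted p under 0.05. Of the genes tested, 5128 (36.3%) were higher after digestion and 5309 (37.5%) lower. Only 1377 of the genes tested (9.74%) were called and differed at least 2-fold, 882 (6.24%) higher and 495 (3.5%) lower, and 4454 genes (31.5%) had no overlap between the 9 values of each method, or 6463 (45.7%) between the 8 without the low-depth pair. Without the low-depth pair, 10654 of 14162 genes (75.2%) were called, 5234 (37%) higher and 5420 (38.3%) lower, and the 10353 genes called both ways all kept their direction. These directions are relative to the typical gene, because the counts were scaled by the trimmed mean of M-values (TMM). When scaled by library totals instead, in which mitochondrial rRNA also counts, the median of all genes moved from -0.01 to 0.54 on the log2 scale and the split became 10790 genes higher and 1104 lower.

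The globin mRNAs, which red blood cells carry into any tissue that holds blood, were nearly absent after digestion. Hbb-bs, an adult beta globin gene, was read at 198.5 to 269 normalised CPM after pull-down (median 217) and at 2.10 to 3.66 after digestion (median 2.80). Its log2 difference was -6.28 ± 0.05 (SE, adjusted p = 1.66e-22). Hba-a1, Hba-a2 and Hbb-bt were lower by a log2 difference of -7.77, -6.71 and -6.39, and for none of the 4 genes did the groups overlap. Of the other markers fixed for red blood cells, Alas2, the erythroid enzyme of haem synthesis, differed far less, with 94.8 to 103 normalised CPM after digestion, 109.5 to 142 after pull-down and a log2 difference of -0.43 ± 0.03 (adjusted p = 6.50e-11), and Slc4a1, the anion exchanger of the red cell membrane, was higher by 0.39. Under scaling by library totals the difference in Alas2 turned to 0.12, while the globin differences kept their sign. Against the unselected libraries, Hbb-bs stood at -5.49 on the log2 scale after digestion and at 0.76 after pull-down.

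The 2 genes of each globin pair are nearly the same in their coding sequence, so reads can be shared between them and the pair is safer than either gene. Added together, Hba-a1 and Hba-a2 gave 1.6 ± 0.355 normalised CPM after digestion and 225 ± 53.8 after pull-down, and Hbb-bs and Hbb-bt gave 3.33 ± 0.641 and 261 ± 29.6 (mean ± SD, n = 9). The stretches printed here, from the GENCODE M21 transcripts on GRCm38, show how alike the members of a pair are, with a capital at the only coding base at which they differ (C381T for the alpha pair and C417T for the beta pair, counted from the first base of the start codon). Of 426 coding bases the alpha pair shares 425 (99.8%), and of 441 the beta pair shares 440 (99.8%). Hba-a1 lies at chr11:32283511-32284465 and Hba-a2 at chr11:32296489-32297298, both on the plus strand. Hbb-bs lies at chr7:103826534-103828096 and Hbb-bt at chr7:103812524-103813996, both on the minus strand.
Hba-a1, coding bases 351 to 411: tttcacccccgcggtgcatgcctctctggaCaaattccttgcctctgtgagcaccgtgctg
Hba-a2, coding bases 351 to 411: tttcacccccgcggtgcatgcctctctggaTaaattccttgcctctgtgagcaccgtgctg
Hbb-bs, coding bases 387 to 441: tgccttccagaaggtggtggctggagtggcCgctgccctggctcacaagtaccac
Hbb-bt, coding bases 387 to 441: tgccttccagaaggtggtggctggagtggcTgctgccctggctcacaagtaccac

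Both mitochondrial rRNA genes were far lower after digestion. mt-Rnr2, the large-subunit (16S) rRNA, was read at 253 to 603 normalised CPM after digestion (median 418) and at 94540 to 266480 after pull-down (median 187280). Its log2 difference was -8.83 ± 0.24 (adjusted p = 7.94e-16). mt-Rnr1, the small-subunit (12S) rRNA, was read at 816 to 1377 normalised CPM after digestion and at 22032 to 44028 after pull-down, a log2 difference of -4.73 ± 0.13 with the same adjusted p. The 2 genes did not behave alike against the unselected libraries. After pull-down mt-Rnr2 lay at the unselected level (-0.01 on the log2 scale) and mt-Rnr1 below it at -2.37, whereas after digestion they lay at -8.84 and -7.11.

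The mRNAs of the mitochondrial genome, which encode 13 subunits of the respiratory chain and ATP synthase, were mostly higher after digestion. Of the 13, 8 were higher and none lower, with a median log2 difference of 0.70, and without the low-depth pair 9 were higher and 1 lower. mt-Nd6, a complex I subunit and the only mRNA on the light strand of the mitochondrial genome, was read at 108 to 150 normalised CPM after digestion (median 129) and at 5.27 to 59.8 after pull-down (median 9.35). Its log2 difference was 3.42 ± 0.22 (adjusted p = 1.15e-10), and the groups did not overlap even though the low-depth library was the highest of the pull-down libraries. Without its pair the difference was 3.52. mt-Nd5, another complex I subunit, was read at 1140 to 1569 normalised CPM after digestion and at 291 to 881 after pull-down, with a log2 difference of 1.81 ± 0.13, or 1.93 without the low-depth pair. mt-Nd4 was higher by 1.5, while mt-Co1, the catalytic subunit of cytochrome c oxidase and the most abundant of the 13, did not pass the test (log2 difference 0.10, adjusted p = 0.331). Under library totals all 13 were higher, with a median of 1.26, and mt-Co1 differed by 0.65 (adjusted p = 2.39e-06). None of the 22 mitochondrial tRNA genes had enough counts to be tested.

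The values of CT010467.1 and Lars2 depended on the low-depth library and on how its pair was treated. CT010467.1, annotated as rRNA, was read at 1412 to 7113 normalised CPM after digestion. After pull-down it was read at 107 to 272 in 8 libraries and at 161710 in the low-depth library. With all libraries its log2 difference was 2.79 ± 1.57 (adjusted p = 0.117), and without the low-depth pair it was 3.98 (adjusted p = 2.65e-09). With all libraries and a block for the matched pairs, edgeR gave 3.57 (adjusted p = 0.00152), and DESeq2 without the block gave 2.82 (adjusted p = 0.00951). Lars2, a mitochondrial leucyl-tRNA synthetase gene, was read at 11.8 to 25.4 normalised CPM in 8 pull-down libraries, 26039 in the low-depth library and 71.5 to 302 after digestion. The log2 difference of Lars2 was 1.44 (adjusted p = 0.420) with all libraries, 2.25 (adjusted p = 0.0220) with the block and 2.71 (adjusted p = 2.68e-08) without the low-depth pair.

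**Figure D2:**
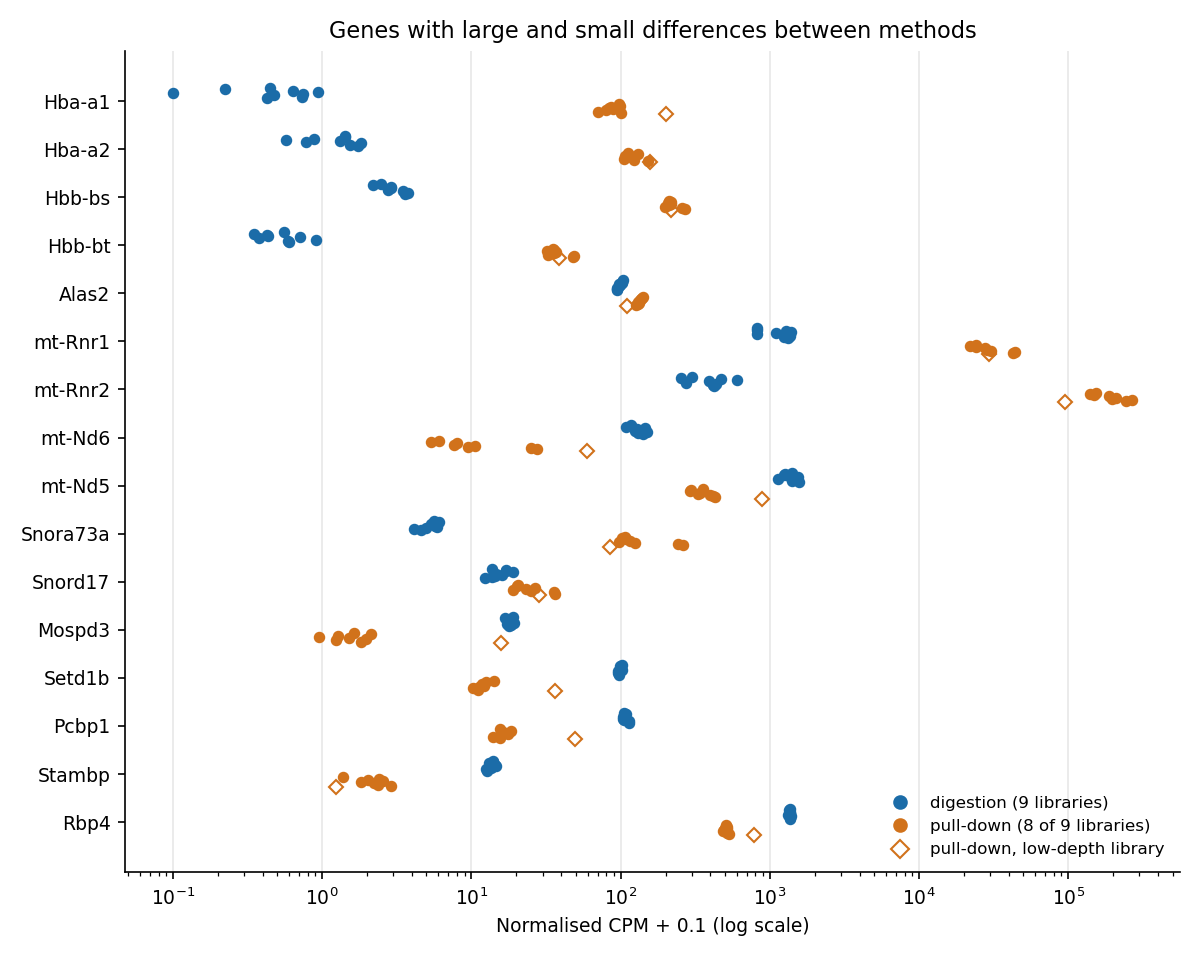
Normalised CPM plus 0.1 (x axis, log scale) of 16 genes (y axis), with 1 point per library, digestion in blue, pull-down in orange and the low-depth pull-down library as an open diamond. The 4 globin genes are below 4 normalised CPM in every digestion library, whereas Alas2 differs little, and for Mospd3, Setd1b, Pcbp1 and Rbp4 the low-depth library lies nearest to the digestion libraries.

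Small nucleolar RNAs guide chemical modification of rRNA, those with C/D boxes for methylation and those with H/ACA boxes for pseudouridylation, and the small Cajal body RNAs (scaRNAs) do the same for spliceosomal RNA. Most of those that could be tested were lower after digestion. All 14 tested H/ACA snoRNA and scaRNA genes of 50 in the table were lower, with a median log2 difference of -2.34 (the same with Snora7a at its lower bound), and all 5 tested C/D genes of 84 were lower, with a median of -1.88. Under library totals 12 of the 14 and 3 of the 5 were lower and none higher, with medians of -1.79 and -1.31. By annotation type, 38 of 43 tested snoRNA genes were lower and 1 higher, and 13 of 16 tested snRNA genes were lower and none higher. A gene could pass the filter on low counts through its pull-down libraries alone, so these counts do not describe all snoRNAs.

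Snora73a, also called E1 or U17, was the most abundant H/ACA snoRNA, at 4.01 to 5.97 normalised CPM after digestion (median 5.48) and at 84.7 to 260 after pull-down (median 109). Its log2 difference was -4.72 ± 0.20 (adjusted p = 2.59e-13), larger with long fragments (-5.69) than with short ones (-4.22, adjusted p of the interaction = 0.0168). Scarna13 differed by -3.74, and Snora7a had 0 counts in every digestion library, at least 16.75-fold lower than after pull-down against a floor of 3 counts per library. All words (runs of 31 bases) of Snora7a also occur in Rpl32, however, and the sum of both differed by -1.88 on the log2 scale. Among C/D genes, Snord15b was read at 3.38 to 5.69 normalised CPM after digestion and at 8.44 to 169 after pull-down, a log2 difference of -2.06 ± 0.29. The highest Snord15b value was that of the low-depth library, and without its pair the difference was -1.78. Gm22154, annotated as a snoRNA and not in either list, differed by -5.92.

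The transcripts of Snora73a, Scarna13, Gm22154 and Snord15b are printed from GENCODE M21 on GRCm38, to show what kind of short RNA these values belong to. In the first 3 capitals mark the ACA that lies 3 bases from the 3′ end, and in Snord15b they mark its first TGATGA (the core of a C box) and its last CTGA (a D box). Snora73a lies at chr4:132352775-132352979 (minus strand), Scarna13 at chr12:105031075-105031349 (minus), Gm22154 at chr4:123293152-123293282 (plus) and Snord15b at chr7:99479563-99479707 (minus).
Snora73a: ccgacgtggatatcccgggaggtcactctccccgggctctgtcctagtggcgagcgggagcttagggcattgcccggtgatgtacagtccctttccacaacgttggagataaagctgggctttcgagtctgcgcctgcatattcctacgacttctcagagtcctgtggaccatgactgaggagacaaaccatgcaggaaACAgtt
Scarna13: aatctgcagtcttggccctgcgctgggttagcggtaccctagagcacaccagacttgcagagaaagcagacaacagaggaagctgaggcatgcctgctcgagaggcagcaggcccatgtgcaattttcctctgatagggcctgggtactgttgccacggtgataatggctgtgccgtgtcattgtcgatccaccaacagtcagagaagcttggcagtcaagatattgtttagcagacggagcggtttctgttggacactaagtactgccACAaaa
Gm22154: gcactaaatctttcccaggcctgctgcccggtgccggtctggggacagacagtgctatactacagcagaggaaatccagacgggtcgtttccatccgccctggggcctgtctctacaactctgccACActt
Snord15b: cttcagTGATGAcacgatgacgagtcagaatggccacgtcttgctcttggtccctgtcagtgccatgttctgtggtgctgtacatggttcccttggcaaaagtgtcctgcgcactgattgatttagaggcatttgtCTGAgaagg

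Most snoRNAs are cut from the introns of host genes, and their sequence is partly held by annotated host transcripts, which makes the split of reads between them uncertain. All 31-base words of Snord15b occur in transcripts of Rps3, while 73.7% of the words of Snora73a occur in Snhg3. Added to its host, Snora73a still gave 7.33 ± 0.711 normalised CPM after digestion and 140 ± 66.3 after pull-down, with no overlap. Snord15b added to Rps3 differed by -1.23. Of 29 tested host genes 20 were lower and 5 higher, beside 37.5% lower and 36.3% higher among all genes tested. Their median was -0.50 and turned to 0.06 under scaling by library totals. Rpl7a, which hosts snoRNAs and encodes a ribosomal protein, was read at 116 to 135 normalised CPM after digestion and at 258 to 295 after pull-down (log2 difference -1.16 ± 0.03).

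Other short structured RNAs made by RNA polymerase III were also lower. Rn7s1, the RNA of the signal recognition particle that directs secreted proteins to the endoplasmic reticulum, was read at 22552 to 29679 normalised CPM after digestion (median 25622) and at 69411 to 115550 after pull-down (median 83244). Its log2 difference was -1.76 ± 0.08 (adjusted p = 5.54e-13), and the groups did not overlap. Of the 31-base words of Rn7s1, 87.4% occur in 14 other genes. Only Rn7s6 among them was added, and that sum differed by -1.775. Rn7sk, which restrains transcription elongation, differed by -1.38, and 6 of the 7 tested members of this list were lower and none higher. Of 2 annotated entries for Rmrp, an RNA that takes part in rRNA processing, 1 was lower and the other did not pass the test. The 2 entries share 96.0% of their 31-base words, and their sum, at 290 ± 39.95 normalised CPM after digestion and 483 ± 341 after pull-down, overlapped between the methods. Against the unselected libraries Rn7s1 stood at -0.37 after digestion and at 1.39 after pull-down.

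Long noncoding RNAs kept in the nucleus were higher after digestion. All 6 tested members of the list were higher, with a median log2 difference of 0.88 that stayed positive under every scaling tried. Malat1, a nuclear speckle RNA, was read at 3995 to 4658 normalised CPM after digestion (median 4146) and at 2221 to 3363 after pull-down (median 2591), a log2 difference of 0.67 ± 0.05. Neat1, the scaffold of paraspeckles, was read at 804 to 827 after digestion and at 366 to 480 after pull-down (1.02 ± 0.04), and Airn, which silences imprinted neighbours of Igf2r, differed by 1.18. In none of these 3 did the groups overlap. Of 326 genes annotated as sense intronic, whose transcripts lie inside an intron of another gene, 114 were tested. Of these 108 were higher and none lower, with a median of 1.18. Among lincRNA genes 298 of 5473 were tested, with 141 higher and 70 lower. Among antisense genes 241 of 2920 were tested, with 111 higher and 44 lower. Genes could pass the filter on low counts through their digestion libraries alone, so these counts do not describe all genes of these types. As the libraries were stranded but the counting mode is not given in the sources used here, reads of antisense genes may include some of their partners.

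The replication-dependent histone genes, whose mRNAs mostly lack a poly(A) tail, showed no common direction. Of 47 tested, 16 were higher and 12 lower, with a median of 0.13, beside 36.3% higher and 37.5% lower among all genes tested. Hist1h2bc, the most abundant, was read at 44.99 to 53.4 normalised CPM after digestion and at 52.0 to 82.4 after pull-down, a log2 difference of -0.50 ± 0.06 that turned to 0.04 under scaling by library totals. The low-depth library held the highest of its pull-down values.

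Ribosomal protein mRNAs were lower after digestion as a group. Of 82 tested genes for cytosolic ribosomal proteins 78 were lower and 1 higher, with a median of -1.05, or -0.50 under scaling by library totals. The nuclear-encoded genes of oxidative phosphorylation were similar, with 74 of 79 lower and 3 higher, a median of -0.77, and -0.21 under library totals. Atp5k, a small subunit of ATP synthase, was read at 5.59 to 14.1 normalised CPM after digestion (median 7.71) and at 62.4 to 158 after pull-down (median 74.9), a log2 difference of -3.41 ± 0.07 (adjusted p = 1.37e-17). Ndufa13, an accessory subunit of complex I, differed by -3.05 and Rpl36a by -3.22. Rps2, the most abundant ribosomal protein mRNA, differed by -0.37 only, and that difference turned to 0.18 under library totals. Rps27 is uncertain, because 98.7% of its 31-base words occur in Rps27rt: it differed by -3.48 alone, and the sum of both genes was 52.7 ± 5.85 normalised CPM after digestion and 138 ± 39.98 after pull-down.

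The products of hepatocytes were lower by smaller amounts. Of 29 tested genes for albumin and other plasma proteins 24 were lower and 4 higher, with a median of -0.56 that was -0.003 under library totals. Alb, albumin, was read at 42347 to 46899 normalised CPM after digestion and at 46382 to 67413 after pull-down (-0.43 ± 0.05), and it turned to 0.12 under library totals. Rbp4, the carrier of retinol in blood, stood against its list, at 1330 to 1376 normalised CPM after digestion (median 1367) and at 484 to 785 after pull-down (median 514). Its log2 difference was 1.35 ± 0.07 (adjusted p = 2.19e-12), and it lay 0.09 above the unselected level after digestion and at -1.26 after pull-down. Orm1, an acute phase glycoprotein, differed by -1.21.

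Among 17 tested genes with symbols that begin with Apo, 15 were lower and 1 higher, with a median of -0.76, or -0.21 under library totals. The higher one was Apobec3, a cytidine deaminase and no apolipoprotein. Apoc1 differed by -1.46 and Apoa2 by -1.26, while Apob, which has a very long mRNA, did not pass the test with all libraries (0.16, adjusted p = 0.0723) and passed it without the low-depth pair (0.09, adjusted p = 0.0126). Urea cycle genes (7 of 11 lower and 1 higher, median -0.17) and cytochrome P450 genes (34 of 66 lower and 13 higher, median -0.18) were close to the typical gene, and both medians turned to 0.38 under library totals. Cps1, the first enzyme of the urea cycle, was read at 4705 to 4803 normalised CPM after digestion and at 4315 to 6585 after pull-down (-0.35 ± 0.06), and it turned to 0.21 under library totals. Of the major urinary protein genes, which share much of their sequence, 9 of 18 were lower and 5 higher. These counts stand beside 37.5% lower and 36.3% higher among all genes tested.

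The lists of markers for the non-parenchymal cells of liver had different medians, which were not tested against each other. All 8 Kupffer cell markers were lower, with a median of -1.03, or -0.48 under library totals, and their summed level was 164 to 181 normalised CPM after digestion and 314 to 422 after pull-down. Marco, a scavenger receptor of macrophages, was read at 2.01 to 3.18 normalised CPM after digestion and at 8.77 to 18.1 after pull-down (-2.10 ± 0.07), and Clec4f, a lectin of Kupffer cells, differed by -1.19. All 8 sinusoidal endothelial markers were lower, with a median of -0.58, or -0.03 under library totals, and 6 of 8 stellate cell markers were lower and 1 higher, with a median of -0.40 that turned to 0.15. All 18 libraries were made from the liver RNA of 1 mouse, so these values compare library preparations and do not describe numbers of cells. Sox9, a transcription factor of bile duct cells, was higher, at 9.98 to 13.1 normalised CPM after digestion and 0 to 2.65 after pull-down (2.36 ± 0.07), while Spp1, the most abundant of the 6 bile duct markers, was lower (-0.48 ± 0.06) and turned to 0.08 under library totals. The other 4 did not pass the test, and the median of the 6 was -0.08.

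**Figure D3:**
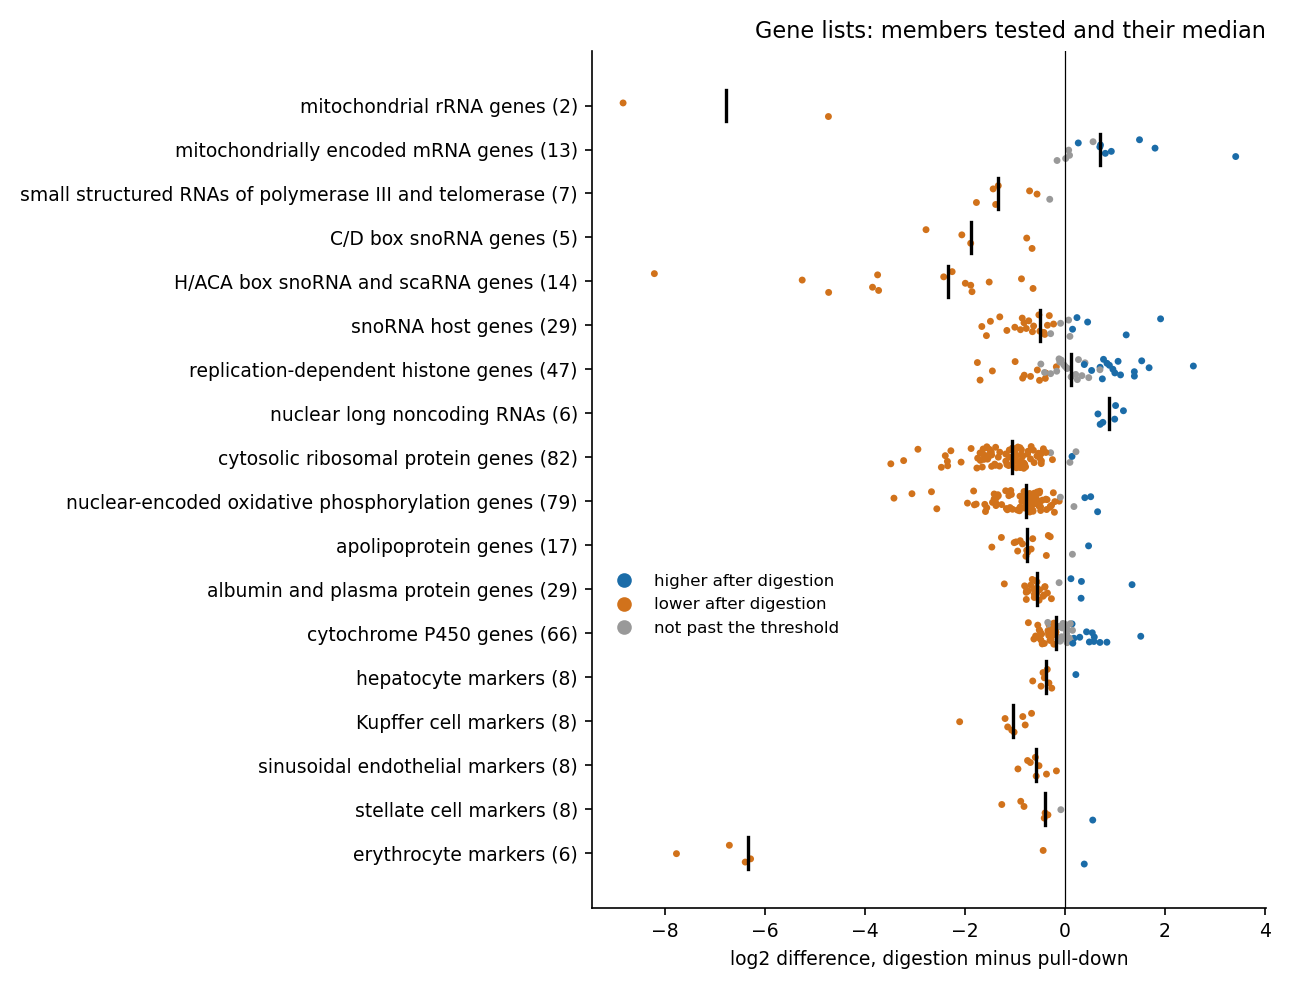
Log2 difference, digestion minus pull-down (x axis), of every tested member of 18 gene lists (y axis, number tested in brackets), with blue points higher, orange points lower and grey points not past the adjusted p of 0.05, and a black bar at each median. The 4 globin genes and mt-Rnr2 lie furthest to the left together with Snora7a, whose fitted value rests on 0 counts after digestion and is no measure of its size, and under scaling by library totals the medians of the hepatocyte (0.18), stellate (0.15), cytochrome P450 (0.38) and snoRNA host (0.06) lists lie above 0.

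Among the 8 nuclear coding genes with the largest excess after digestion were Gm21887, Adnp, Mospd3, Setd1b, Atn1, Pcbp1 and Stambp. Setd1b, a histone H3 lysine methyltransferase, was read at 95.2 to 102 normalised CPM after digestion (median 98.7) and at 10.1 to 36.1 after pull-down (median 11.7), a log2 difference of 3.05 ± 0.09 (adjusted p = 1.31e-15). Pcbp1, a poly(C)-binding RNA regulator, was read at 103.5 to 115 and at 13.8 to 49.7 (2.69 ± 0.09). In both the groups did not overlap and the low-depth library was the highest of the pull-down libraries. Without its pair Setd1b differed by 3.08 and Pcbp1 by 2.73. Atn1, a transcriptional corepressor, differed by 2.97, Mospd3, a membrane contact site protein, by 3.56, and Stambp, an endosomal deubiquitinase, by 2.69.

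Most of these genes lay nearer to the unselected level after digestion than after pull-down. Setd1b stood at 0.38 on the log2 scale after digestion and at -2.51 after pull-down, Pcbp1 at 0.53 and -2.03, Mospd3 at 0.36 and -2.85, Atn1 at 0.02 and -2.84 and Stambp at 0.01 and -2.74. Adnp stood at 0.54 and -5.66, and Gm21887, with a mean of only 6.33 counts in the unselected libraries, at 2.42 and -3.52. The unselected libraries had 20 ng of input and another composition, so these are levels side by side with no test. Over all genes called with at least a 2-fold difference and at least 20 counts on average in the unselected libraries, 540 of 752 (71.8%) were nearer to the unselected level after digestion, beside 5827 of 8979 (64.9%) of all genes tested at that depth. The 2 directions were not alike. Of those higher after digestion 438 of 464 (94.4%) were nearer after digestion, and of those lower only 102 of 288 (35.4%).

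Some large differences lay in genes whose sequence is also held by another gene. Adnp, a neuroprotective homeobox gene, was read at 41.4 to 57.5 normalised CPM after digestion and at 0 to 2.91 after pull-down, a log2 difference of 5.53. However, 89.1% of its 31-base words occur in Gm20716, which was lower after digestion by 0.86, and the sum of both genes was 71.3 ± 3.88 normalised CPM after digestion and 36.1 ± 4.78 after pull-down, a log2 ratio of 0.98. Atn1 shares 86.5% of its words with Gm45234, and the sum of both kept most of the difference, at 2.41 with no overlap. Gm21887 differed by 5.93 alone and by 1.82 as a sum with Gm47283, which holds all of its words. Gm10222, a pseudogene, had 0 counts in every pull-down library and was at least 282.1-fold higher after digestion, yet all of its words lie in mt-Nd4l, and the sum of both differed by 1.66. Gm28037 was at least 29.55-fold higher after digestion against 0 counts after pull-down, whereas its sum with Rpl24 differed by -1.17, the other way. Gm15387 and Gm15725 had 0 counts in every digestion library and were at least 235.9-fold and 78.7-fold lower, and the sum of Gm15725 with Lrrc58 differed by 0.76, again the other way. Gm15387 and the pseudogene Gm10163 share words with 144 and 114 other genes, of which only 1 each, with few or no counts, was added, so their sums (-5.61 and 3.57) repeat the single difference. For all of these genes but Atn1 the size of the single difference cannot be told apart from a different split of shared reads.

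A direct match to rRNA was looked for in the tested transcripts. Only 4 of 14093 searched held 25 or more bases in a row of an annotated rRNA gene or its reverse complement, namely Mrpl35, Emc7, Tmem38b and Hist1h2ac, of which 2 were lower, 1 higher and 1 not past the threshold. None of the 16 nuclear coding genes named for the size of their difference was among them. The search covered the rRNA genes of the annotation, in which the nuclear rRNA locus is incomplete.

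The difference between methods followed transcript length. Among nuclear coding genes the median log2 difference was -0.72 for 71 genes with transcripts under 500 bases, -0.61 from 500 to below 1000, -0.31 from 1000 to below 2000, -0.05 from 2000 to below 4000, 0.17 from 4000 to below 8000 and 0.34 for 642 genes of 8000 bases or more. In the shortest class 63.4% of genes were lower after digestion and in the longest 11.1%, against 39.2% of all nuclear coding genes. Across 12771 genes, which share the same 18 libraries, Spearman's rho of the difference with transcript length was 0.446, and 0.443 without the low-depth pair. The order of the classes was the same in genes of 45 to 55% GC (-1.09 to 0.36), and without ribosomal protein and oxidative phosphorylation genes the 2 shortest classes changed places (-0.39 and -0.56). Under library totals the medians ran from -0.17 to 0.89, and every class of 1000 bases or more lay above 0. The 374 coding genes lower by at least 2-fold had a median transcript of 1018 bases, and the 624 higher by at least 2-fold had one of 3924 bases, beside 3029 for all tested.

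**Figure D4:**
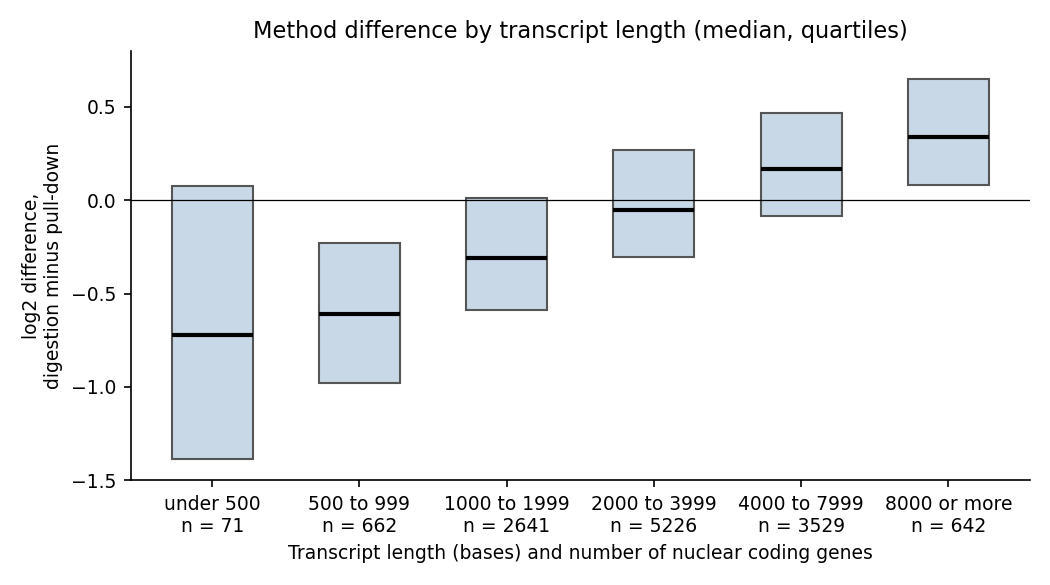
Log2 difference, digestion minus pull-down (y axis), of nuclear coding genes by class of transcript length (x axis, with the number of genes), as the median (black line) and the quartiles (box). The median is -0.72 in the shortest class and 0.34 in the longest, and under scaling by library totals all classes lie higher, from -0.17 to 0.89.

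GC content was linked to the difference more weakly and in a way that depended on fragment length. Genes of 60% GC or more had a median of 0.38, with 61.3% higher after digestion, while the other GC classes had medians of -0.08 to 0.05, and Spearman's rho across the same genes was 0.101. In genes under 40% GC the median went from 0.29 with short fragments to -0.16 with long ones. In genes of 60% GC or more it went from 0.25 to 0.58. Without the low-depth pair the values with long fragments were -0.19 and 0.60. Of the coding genes at least 2-fold higher after digestion 18.4% had 60% GC or more, beside 4.57% of all tested.

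The method difference itself depended on fragment length in 871 genes (6.16%) by the interaction test in edgeR. Without the low-depth pair, which is the slow ramp with long fragments, the count was 2328 genes (16.4%), of which 865 were in both sets. Of the 871 genes, 293 had a higher log2 difference with long than with short fragments and 578 a lower one, while of the 2328 they numbered 1086 and 1242. Of the 13 mitochondrial mRNAs, 4 passed this interaction test with all libraries. As a group they had a median difference of 1.34 with short fragments, 0.71 with medium and 0.31 with long ones. For long fragments the median of the 13 was -0.10 without the low-depth pair, and the other genes of the group are not singled out here except mt-Nd6. For mt-Nd6 the difference was 4.17, 3.88 and 2.35 (adjusted p of the interaction = 0.000136), with 2.42 for long fragments without that pair. By ramp rate no gene reached an adjusted p under 0.05 in edgeR's quasi-likelihood test (0 of 14140, 0%), with 243 at an unadjusted p under 0.05, and DESeq2's likelihood ratio test also called 0, with 178 unadjusted. A p that misses the threshold does not show that ramp rates act alike in both methods.

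**Figure D5:**
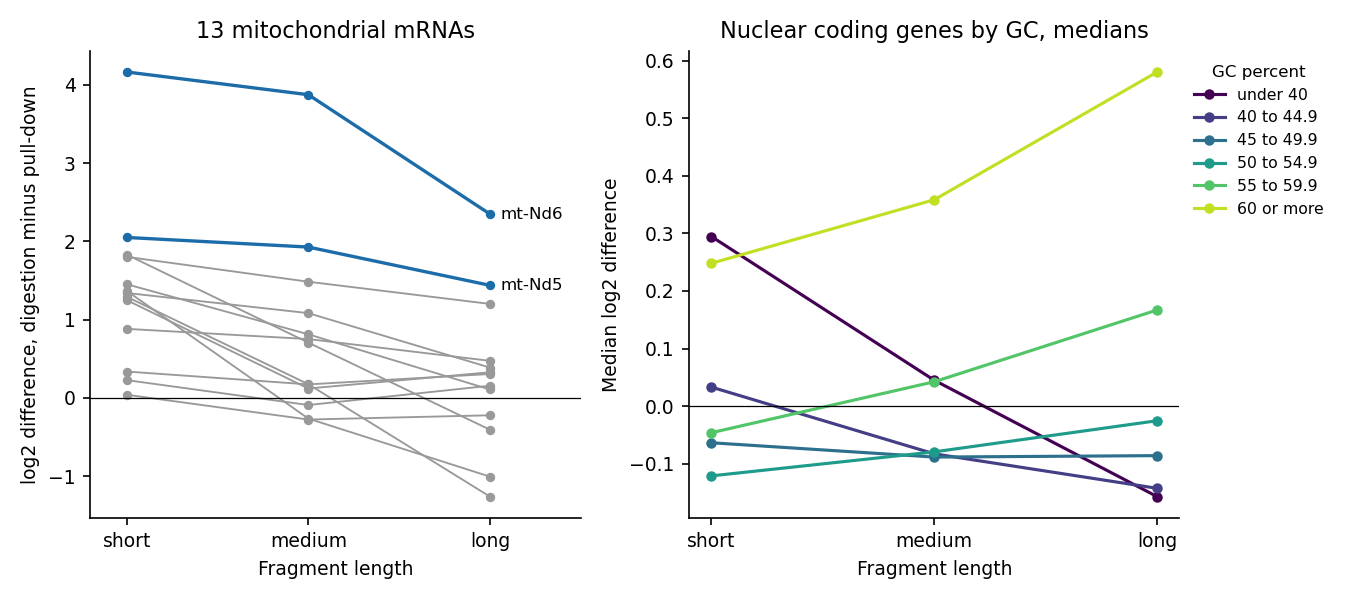
Log2 difference, digestion minus pull-down (y axes), by fragment length (x axes) for each of the 13 mitochondrial mRNAs (left, 1 line per gene) and as medians of nuclear coding genes in 6 classes of GC content (right, 1 line per class). The median of the mitochondrial mRNAs is 1.34 with short and 0.31 with long fragments (-0.10 without the low-depth pair), and the classes of lowest and highest GC content move in opposite directions.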

How the data were processed

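Per the labels, RNA from 1 liver was made into 9 digestion and 9 pull-down libraries, and 3 unselected libraries of the same batch served for comparison. The authors deposited expected counts per gene for 51368 Ensembl genes. The submitters' processing notes name Salmon 1.9.0, UMI-tools 1.1.1, R 4.4.0 and GRCm38, while the transcript set and the use of UMIs for these counts are not given in the sources used here. Symbols, types, lengths and GC content came from GENCODE M21, which matched 50896 genes. Expected counts were rounded and tested with edgeR 4.0.16 (limma 3.58.1, R 4.3.3) by the quasi-likelihood test with TMM, filterByExpr, ramp rate and fragment length as covariates, and Benjamini-Hochberg adjustment over all genes tested. Normalised CPM are counts scaled to TMM-adjusted library totals. Differences are log2 of digestion over pull-down. Standard errors (SE) were derived from each log2 difference and its F value. DESeq2 1.42.0, other scalings, no filter, thinning to equal total counts (without the low-depth pair) and a block of matched pairs were alternatives. The scripts were tested on simulated data. A lower bound on a fold uses 3 counts in each library at 0.

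The members and gene lists were chosen with earlier results of these data known. The genes named are, by rule, the 8 nuclear coding, 3 noncoding and 2 pseudogene entries with the largest difference in each direction among genes past the threshold, of at least 5 normalised CPM and with no overlap, and of each list the most abundant member and the 2 with the largest difference, with every member of lists of up to 5 genes. Other genes named were chosen after their values were seen. Sums of a gene and its copy, and the lists under other scalings, were added after seeing the data. Some named items are not reported here. Shared sequence was measured in words of 31 bases.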

Additional observations from a re-analysis of the deposited data

Results flagged for a closer look

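In 49 of 224 groups of 9 libraries, 1 library stood apart from the others by Dixon's test at the 95% level, which chance does in about 1 of 20 groups. In 42 of the 49 it was the low-depth pull-down library. It was the highest or lowest pull-down library in its share of polymerase III RNAs (11.45%), C/D snoRNAs (0.01944%) and nuclear rRNA locus transcripts (14.76%). Among genes with higher levels after digestion, it was read at 15.81 normalised CPM for Mospd3, 36.13 for Setd1b, 7.903 for Atn1, 49.68 for Pcbp1, 784.7 for Rbp4, 33.87 for Zfp395 and 37.26 for Dhcr7, and at 0 for Ppnr and Sox9. In mitochondrial and rRNA locus genes it gave 59.84 for mt-Nd6, 880.6 for mt-Nd5, 26040 for Lars2 and 161700 for CT010467.1. Among small RNAs and their hosts it gave 16.94 for Snord15a, 169.4 for Snord15b, 0 for Rnu3b2 and 9.032 for Snhg11, and among histone genes 2.258 for Hist1h2af, 74.51 for H3f3a, 14.68 for H2afx and 46.29 for H2afj. Among genes of hepatocyte function it gave 7480 for Apob, 8390 for Apoa1, 2162 for Mup3, 3482 for Cyp3a11, 2.258 for Cyp46a1, 4315 for Cps1, 280.0 for Otc and 921.3 for Tdo2. The remaining values of this library were 199.8 for Hba-a1, 109.5 for Alas2, 33.87 for Fam25c, 21.45 for Gm15725, 188.5 for Ndufa13, 13.55 for Col16a1, 18.06 for Marco, 11.29 for Spp1, 15.81 for Kdm5d and 21.45 for Eif2s3y. With 1126383 counts in this library, values of 0 or a few normalised CPM rest on few counts, which Dixon's test does not weigh.

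The other 7 groups had another library apart. The digestion library of fast ramp and medium fragments was the highest of its group in nuclear rRNA locus transcripts (0.887%), CT010467.1 (7113 normalised CPM) and Lars2 (302.1). Single libraries also stood apart for Gm21887 after pull-down (0.6274), Rmrp after pull-down (392.7), Dhcr7 after digestion (57.87) and Col3a1 after digestion (31.82).

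For 14 named genes the difference between methods itself differed between fragment lengths by edgeR's interaction test. The log2 difference with long fragments minus that with short ones was -0.7312 for AC117816.1, 1.671 for Gm10163, -1.815 for mt-Nd6, -0.9408 for Snord17, -1.462 for Snora73a, 0.3313 for Pmvk and -0.4751 for Zfp871. It was -0.3805 for Cd5l, -0.2496 for Stab2, -0.184 for Kdr and -0.7069 for Uty. In genes that share nearly all of their sequence with a parent or copy it was -5.181 for Rps27, 13.5 for Rps23-ps1 and 10.57 for Rps16-ps2. Both pseudogenes were at 0 normalised CPM in every pull-down library of long fragments, so their fitted values are no measure of size.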

How the results depend on the processing

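The number of genes differing between digestion and pull-down was 10437 with all libraries and 10045 to 11894 under 9 of the 10 alternatives. Tested against a change of at least 2-fold, 798 genes were called, 508 higher and 290 lower, since that test asks for more. Scaling by library totals gave 10790 higher and 1104 lower, and turned the difference of 17 of 105 named genes from below to above 0, with log2 differences of 0.04455 for Hist1h2bc, 0.336 for H3f3a, 0.1765 for Rps2, 0.1214 for Alb, 0.2456 for Mup3, 0.3363 for Cyp3a11, 0.2068 for Cps1, 0.1363 for Otc, 0.07135 for Atp5b, 0.08156 for Tdo2, 0.0382 for Stab2, 0.1617 for Reln, 0.07535 for Spp1, 0.1229 for Alas2, 0.4658 for Kdm5d, 0.3353 for Ddx3y and 0.2935 for Eif2s3y. Under it mt-Co1, Apob and Col18a1 gained a call, and Snord17 (-0.21, adjusted p = 0.100), Rnu12 (-0.22, adjusted p = 0.360) and Apoa1 (-0.09, adjusted p = 0.310) lost theirs. The fit with the replicate block of the 9 matched pairs called 10096 genes, with 4986 of the genes differing between digestion and pull-down, higher in digestion, and 5110 of the genes differing between digestion and pull-down, lower in digestion. The pairs share only ramp rate and fragment length: deviations from the group means correlated within pairs at -0.0257 to 0.313, and 2 of 9 pairs matched best with each other. Of the named genes the block changed the call of CT010467.1 (3.57), Lars2 (2.25) and Cyp3a11 (-0.20, adjusted p = 0.0565). Without the low-depth pair the fragment length interaction reached 2328 genes (871 with it, 1221 by DESeq2), and the nuclear rRNA locus share was higher after digestion by 0.3653 percentage points (adjusted exact p = 0.00868). With rRNA genes out of the totals the pseudogene difference turned to -0.1349 percentage points (adjusted exact p = 0.0195); the cause was not tested. Without the low-depth pair 5 named genes passed the test that had not before, namely CT010467.1, Lars2, Apob, Col18a1 and Kdm5d. The depth of the low-depth library limits what can be said of genes with few counts in it.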

Other observations

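The lists here stand beside all genes tested, of which 36.3% were higher and 37.5% lower. Of 312 tested Zfp genes, most of them zinc finger genes, 105 were higher and 83 lower, with a median log2 difference of 0.03, and Zfp395 differed by 2.38. Of 38 collagen and laminin genes 18 were lower and 6 higher (median -0.15), of 20 cholesterol synthesis genes 10 were lower and 5 higher (median -0.04), and of 12 genes of hepatic glucose metabolism 8 were lower and 1 higher (median -0.38). Of 9 replacement histone variant genes 6 were lower and 2 higher (median -0.22). Under scaling by library totals all of these medians lay above 0, at 0.58, 0.39, 0.51, 0.17 and 0.34. Of 13 tested ribosomal protein pseudogenes 3 were higher and 3 lower. Rps6-ps4 differed by 4.78, but all of its 31-base words lie in Rps6, and the sum of both differed by -0.84.

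The low-depth pull-down library was often the highest of its method in genes higher after digestion. Among nuclear coding genes with a mean of at least 50 normalised CPM in a method, it was the highest of the 9 pull-down libraries in 140 of 184 genes (76.1%) at least 2-fold higher after digestion, and in 820 of 2801 genes (29.3%) overall. Its median log2 ratio to the mean of the other 8 was 0.54 in the first set and -0.12 overall. In the 113 genes at least 2-fold lower after digestion it was the lowest in 41 (36.3%), against 1357 of the 2801 (48.4%), and its median log2 ratio was -0.001. This library had 12.7% of its counts in CT010467.1, and the part of this in the ratio was not tested.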
